A study of Mus musculus with 8 samples.

Results

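The genes described here encode the nuclear subunits of the mitochondrial respiratory chain. They were taken by name: every row of the deposited table whose symbol starts with Nduf and a letter a, b, c, s or v with a number, is Sdha to Sdhd, or starts with Uqcr, with Cox4 to Cox8 or with Atp5, leaving out pseudogene names. This gave 83 of 24787 rows, of which 37 belong by name to complex I, 4 to complex II, 8 to complex III, 18 to complex IV and 16 to complex V. No measured value was used to choose them. RNA came from 4T1, a mouse mammary carcinoma cell line grown in culture. The study has 4 libraries labelled shcontrol, of genotype WT, and 4 labelled shEtv5, of genotype Etv5 knockdown; both groups carry an shRNA, and Etv5 encodes an ETS-family transcription factor. The headers use 1 construct name for each group (NT and sh2), so effects of the Etv5 knockdown and of that construct cannot be told apart. The series concerns tumour-cell ETV5, myeloid suppressor cells and resistance to checkpoint inhibitors; the libraries hold cultured tumour cells, with no host tissue.

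The respiratory chain passes electrons from NADH and succinate to oxygen in the inner mitochondrial membrane and uses the resulting proton gradient to make ATP. Complex I (NADH dehydrogenase), complex III (the cytochrome bc1 complex), complex IV (cytochrome c oxidase) and complex V (ATP synthase) mix nuclear subunits with a few made from mitochondrial DNA, whereas complex II (succinate dehydrogenase) is wholly nuclear. Promoters of the nuclear subunits are known for binding sites of NRF1, of the ETS-family factor GABP and of YY1, and the ETS core motif is shared by most members of that family, Etv5 among them.

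The promoter sequences are given first because Etv5 and GABP bind the same kind of core. Promoters from RefSeq (GRCm38.p6) reached from 250 bases before to 50 bases after the start of transcription, and 66 of the 83 genes had an entry. The ETS core CCGGAAG, searched on both strands, was in 16 of these 66 genes, or 24.2%, against 9.93% of 27025 genes with an entry. The NRF1 core GCGCANGCG was in 20 of 66, or 30.3%, against 7.03%, and the YY1 core AAGATGG in 10 of 66, or 15.2%, against 7.28%. Where they adjoin, the ETS and YY1 cores can share the letters AAG, and the NRF1 core is nearly its own reverse complement, so 1 site can match on both strands. These are matches of letters, not measured binding sites. The sequences are 200 bases, 170 before and 30 after the start, for the gene with an ETS core that had the highest control level in each complex. All are 5′ to 3′ on the strand of the gene; capitals mark ETS cores (CCGGAAG, or CTTCCGG on the other strand) and NRF1 cores.
Ndufb7 (complex I, chr8:83566588-83566787, plus strand): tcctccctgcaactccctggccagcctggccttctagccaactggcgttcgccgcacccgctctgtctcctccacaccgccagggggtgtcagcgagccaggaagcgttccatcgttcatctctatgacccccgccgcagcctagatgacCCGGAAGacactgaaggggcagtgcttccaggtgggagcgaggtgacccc
Sdhd (complex II, chr9:50603820-50604019, minus strand): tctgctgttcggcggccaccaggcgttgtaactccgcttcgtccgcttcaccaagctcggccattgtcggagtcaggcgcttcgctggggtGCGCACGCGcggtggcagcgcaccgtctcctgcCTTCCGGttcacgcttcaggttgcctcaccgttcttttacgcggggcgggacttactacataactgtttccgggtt
Uqcrh (complex III, chr4:116075041-116075240, minus strand): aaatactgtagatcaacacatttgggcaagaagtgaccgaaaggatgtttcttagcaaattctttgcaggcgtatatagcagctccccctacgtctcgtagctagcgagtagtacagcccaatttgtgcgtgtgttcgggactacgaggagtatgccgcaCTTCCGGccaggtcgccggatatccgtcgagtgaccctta
Cox6a1 (complex IV, chr5:115348929-115349128, minus strand): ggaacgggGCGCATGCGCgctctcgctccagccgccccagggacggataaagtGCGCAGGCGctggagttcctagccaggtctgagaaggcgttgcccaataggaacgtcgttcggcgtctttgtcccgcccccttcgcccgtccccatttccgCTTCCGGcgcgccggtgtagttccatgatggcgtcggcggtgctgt
Atp5e (complex V, chr2:174464072-174464271, minus strand): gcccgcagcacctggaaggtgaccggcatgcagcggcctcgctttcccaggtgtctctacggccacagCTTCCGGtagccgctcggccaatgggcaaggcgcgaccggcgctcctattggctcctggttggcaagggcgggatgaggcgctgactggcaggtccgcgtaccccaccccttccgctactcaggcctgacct
The ETS core began 20 bases before the start in Ndufb7, at position -20, and at -46 in Sdhd, -10 in Uqcrh, -16 in Cox6a1 and -102 in Atp5e. Sdhd also held an NRF1 core at -79. Cox6a1 held NRF1 matches at -162, -161 and -117, of which the first pair is 1 site read on both strands.

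Levels are coverage values, taken here as the mean read coverage per base of a gene after scaling to library depth. That unit is inferred from the values and the column headers. Setting levels of genes with different lengths side by side rests on it. Of the 83 genes, 76 reached 0.5 in at least 4 libraries and were tested: 36 of complex I, 4 of complex II, 8 of complex III, 12 of complex IV and 16 of complex V. The other 7 were Ndufa4l2, Cox4i2, Cox7a1, and Cox6b2, Cox7b2, Cox8b and Cox8c, the last 4 of which are listed at 0 in every library. The highest level in the controls was that of Atp5b, the catalytic beta subunit of ATP synthase (chr10:128083273-128090391), at 543 ± 52.9 (SD, n = 4). Next came Cox4i1, the general form of subunit 4 of cytochrome c oxidase, at 332 ± 100 (SD, n = 4). These do not overlap, since the lowest Atp5b value in the controls was 498 and the highest Cox4i1 value 476. Cox6a1 and Cox8a followed at 283 ± 94.9 and 268 ± 70.8 (SD, n = 4), with ranges that overlapped that of Cox4i1 and each other. Within every control library Cox4i1 was above both, while the order of Cox6a1 and Cox8a varied between libraries. The median control level was 35.4 for complex I, 67.1 for complex II, 64.6 for complex III, 132 for complex IV and 91.5 for complex V. Complex II had the narrowest span, from Sdha, the flavoprotein that oxidises succinate, at 49.0 ± 2.97 (SD, n = 4) to Sdhd, a membrane anchor, at 89.4 ± 17.0 (SD, n = 4). Complex I spanned from Ndufb2 at 10.8 to Ndufb9 at 234, both accessory subunits of the membrane arm. The longest transcript of Ndufb2 has 4371 bases, and since the transcript averaged over is not given, its low level is uncertain.

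**Figure D1:**
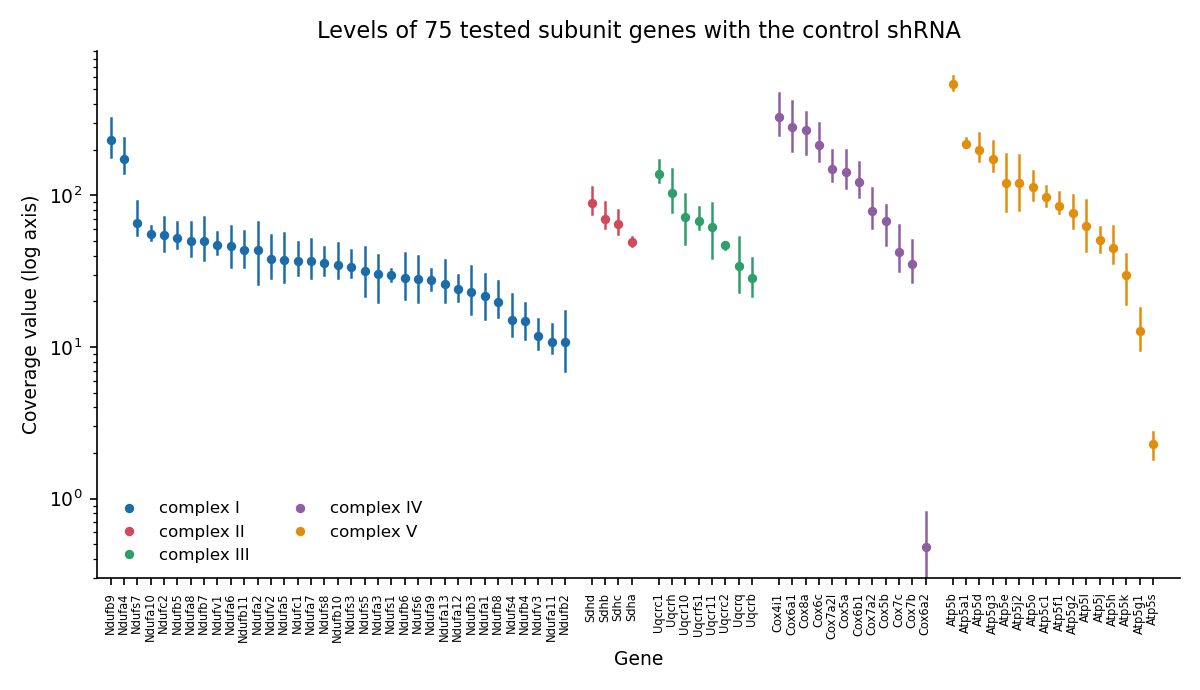
Control levels of 75 of the 76 tested subunit genes, with the coverage value on a log axis and genes ordered by level within each complex. Points are means of the 4 control libraries and lines run from the lowest to the highest library (for Cox6a2 the line leaves the axis, since 1 control library is at 0). Atp5b is highest at 543, and Cox6a2 and Atp5s lie far below the other genes of complexes IV and V.

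Where a subunit has tissue forms, the 4T1 libraries held the general form. Cox6a1 was 586-fold above Cox6a2, the form of heart and skeletal muscle, in the controls. Cox7a2 was 269-fold above Cox7a1, the other muscle form. Cox4i2, known from lung and low oxygen, did not exceed 0.222 in any library, against a Cox4i1 level that was never below 251. Ndufa4l2, known as a target of hypoxia-inducible factor, likewise stayed at or below 0.222, while its relative Ndufa4 stood at 175 ± 45.8 (SD, n = 4) in the controls. Ndufa4 is named as a subunit of complex I and is now placed with complex IV. The 4 genes at 0 are known from testis (Cox6b2, Cox7b2, Cox8c) and muscle (Cox8b). Atp5g1, Atp5g2 and Atp5g3 encode the same mature c subunit of the ATP synthase rotor, and Atp5g3 was 2.26-fold above Atp5g2 and 13.6-fold above Atp5g1 in the controls. The longest transcript has 4715 bases for Atp5g1 and 723 for Atp5g3. Which transcript the values average over is not given, so the ratio to Atp5g1 is uncertain.

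The genes lie on 19 chromosomes and are short: the 76 tested ones had a median transcript length of 891.5 bases against 3003 for all tested genes, and 43 of the 76 were under 1000 bases, against 8.46% of all tested genes. Many have processed copies in the genome. Of the 83, 45 shared at least 1 stretch of 50 bases with a transcript of another gene, 26 shared at least 10% of their stretches, and 31 shared with a pseudogene. Atp5l shared most, 84.8% of its stretches, so its reads could be split among copies and its value is uncertain; Atp5h followed at 47.9% and Uqcrb at 43.4%. Cox4i1 shared 14.7% with its neighbour Emc8 and Cox5a shared 32.0%. Ndufb7, Ndufs8, Sdhb and Atp5e shared none.

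The targeted gene, Etv5, had coverage values of 15.2, 15.1, 11.7 and 14.4 in control replicates 1 to 4 and 13.04, 11.2, 7.52 and 12.7 in Etv5 shRNA replicates 1 to 4. The groups overlapped. Etv5 had a log2 fold change of -0.33 (limma adjusted p = 0.819), and of -0.17 without Etv5 shRNA replicate 3 (limma adjusted p = 0.422); the exact two-sided permutation test of the 8 values gave p = 0.0857, where the smallest p it allows is 0.0286. Directions below are therefore those of the libraries labelled shEtv5, not of a measured loss of Etv5 RNA. All 6 markers of mammary epithelium were above 0 in every library, and summed leukocyte and endothelial markers did not exceed 0.359. Of the 4 fibroblast markers, Dcn and Lum are listed at 0 throughout, and the sum, nearly all Pdgfra, ran from 2.54 to 3.54 in control libraries and from 0.520 to 2.15 in shEtv5 libraries; the part of this in the results was not tested. In bulk RNA, fewer cells of a type and less RNA per cell cannot be told apart.

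Etv5 shRNA replicate 3 stood apart from the other 7 libraries before any comparison. It had 13920 genes above 0, against 15126 to 15379 in the others, and its values summed to 390495, against 254792 to 308393. Genes of ribosomal proteins, also short and abundant, took 22.3% of that sum, against 8.03% to 12.2%. Control replicate 3 had the next highest ribosomal share, 12.2%.

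The subunit genes took 2.05%, 2.21%, 2.63% and 1.94% of summed coverage values in control replicates 1 to 4, and 2.07%, 2.04%, 4.05% and 2.33% in Etv5 shRNA replicates 1 to 4. The libraries numbered 3 were the highest of each group, and the other 6 lay close together with overlapping groups. The sum for complex I was 1371, 1593, 2153 and 1281 in the controls and 1401, 1298, 4531 and 1674 with the Etv5 shRNA. For complex IV it was 1499, 1716, 2429 and 1306 against 1444, 1416, 4809 and 1797. The sums of complex III ran 484, 560, 734 and 441 against 479, 464, 1547 and 572. Those of complex V were 1752, 1923, 2462 and 1667 against 1892, 1820, 4555 and 2057. Complex II alone had no such peak in its sum, at 244, 267, 337 and 242 against 246, 239, 353 and 275. Its gene Sdhb did, with a ratio of 2.33 in Etv5 shRNA replicate 3 to the mean of the other Etv5 shRNA libraries. Sdhb has the shortest transcript of complex II, at 1142 bases. Sdhd, the next shortest at 1231 bases, had a ratio of 1.11. The part of length in this was not tested. In each of the 5 complexes the groups overlapped.

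**Figure D2:**
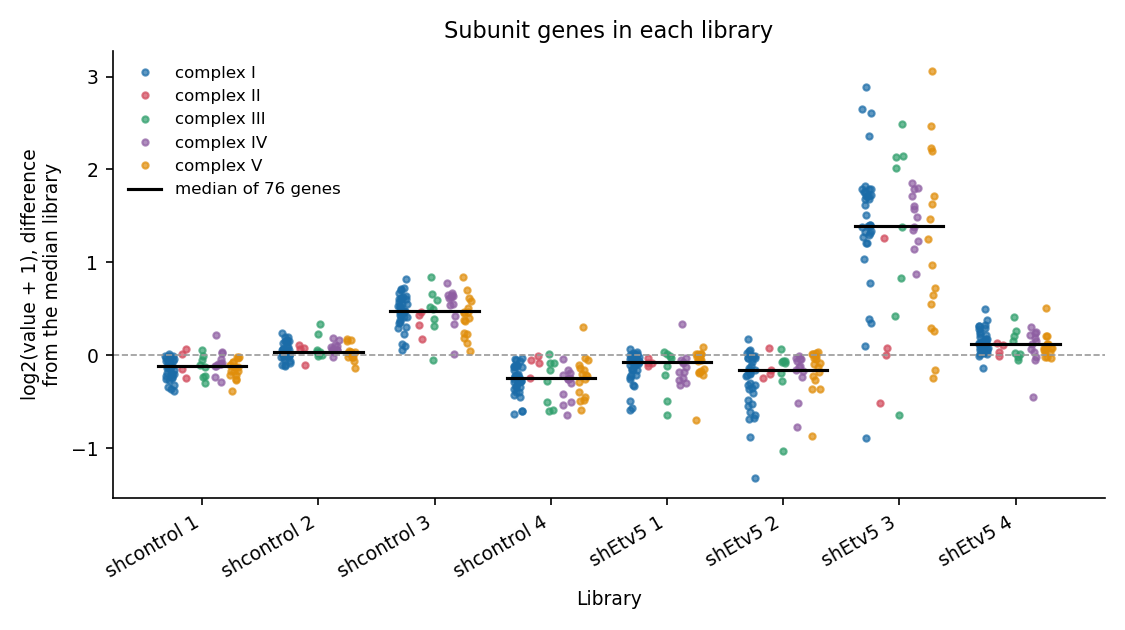
Each tested subunit gene (point, coloured by complex) in each library, as log2(coverage value + 1) minus the median of the 8 libraries for that gene; black bars are medians of the 76 genes. Etv5 shRNA replicate 3 has a median of 1.40 and control replicate 3 of 0.48, and the other 6 lie between -0.24 and 0.12.

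The comparison of Etv5 shRNA with control shRNA asks whether any subunit differed when Etv5 was targeted. With all 8 libraries, limma called 0 of the 76 genes at an adjusted p under 0.05, where it called 0.494% of all 11731 tested genes (0.00852% higher and 0.486% lower), and no subunit gene had an unadjusted p under 0.05, against 7.09% of all genes. The smallest adjusted p was 0.815, of Ndufa9. The median log2 fold change of the subunit genes was 0.24, from -0.22 to 0.79, with 69 of 76 above 0, beside a median of -0.11 over all tested genes. No subunit gene had groups that did not overlap, against 9.1% of all genes (1.52% higher and 7.58% lower). Without Etv5 shRNA replicate 3, limma again called 0 of 76, where it called 3.14% of all genes (1.08% higher and 2.05% lower), and 1 subunit gene, Uqcrh, had an unadjusted p under 0.05, against 18.8% of all genes. The median was then -0.11, from -0.57 to 0.19, with 57 of 76 below 0, beside -0.00 over all tested genes. The median thus changed sign with that library. Leaving out control replicate 3 as well, which had the same but smaller excess, gave 0 called of 76 against 8.91% of all genes (3.58% higher and 5.33% lower), a median of 0.05 beside -0.01, and 44 genes above and 32 below 0.

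The width of the intervals says what could have been seen. With 8 libraries the median 95% interval of a subunit gene reached 0.86 to either side on the log2 scale, and only 28 of 76 intervals lay within -1 to 1, that is within a doubling or halving of value + 1; among all genes 80.4% did. Without Etv5 shRNA replicate 3 the median reach was 0.41 and 72 of 76 intervals lay within those bounds, and without both replicates 3 it was 0.25 and 75 of 76. Both libraries were singled out by their values in these data, so intervals and p-values from fits without them can be too narrow or too small. A missing call does not show that levels were the same; it leaves these intervals.

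**Figure D3:**
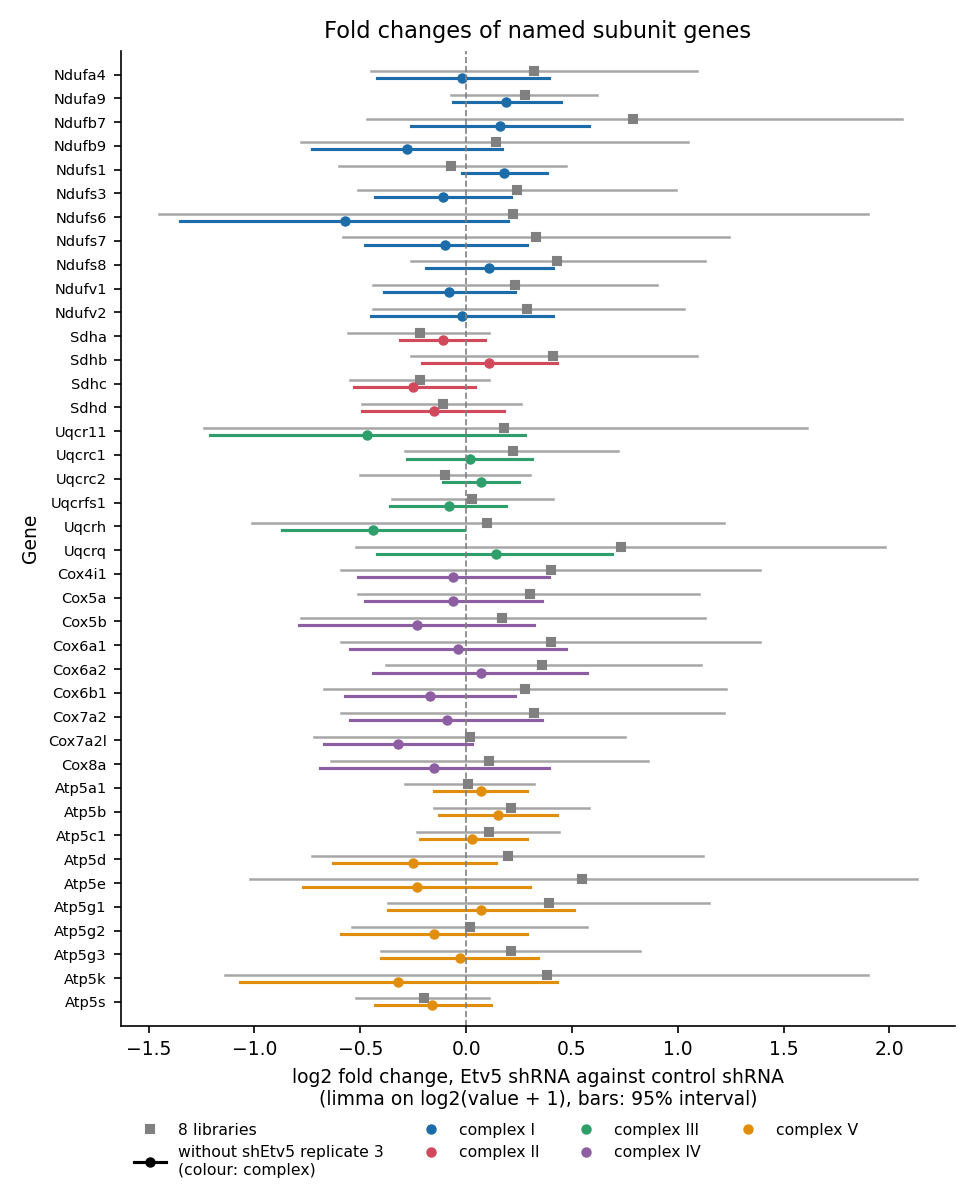
log2 fold changes of named and tested subunit genes, Etv5 shRNA against control shRNA, from limma on log2(coverage value + 1); bars are 95% intervals, grey squares use 8 libraries and coloured points leave out Etv5 shRNA replicate 3. Every interval drawn includes 0 except that of Uqcrh without that library, which ends at -0.01, and none passes the adjusted threshold.

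Complex I takes electrons from NADH. Its 36 tested genes had a median log2 fold change of 0.27 with 8 libraries and -0.13 without Etv5 shRNA replicate 3. Ndufs1, the large iron-sulphur subunit of the NADH-oxidising arm, had values of 27.2, 29.0, 33.0 and 30.3 in the controls and 33.1, 35.9, 16.6 and 32.9 with the Etv5 shRNA. Its lowest library was Etv5 shRNA replicate 3, and among the other 7 libraries only control replicate 3 reached the Etv5 shRNA values. The log2 fold change of Ndufs1 was -0.07 with 8 libraries and 0.18 (95% interval -0.02 to 0.38) without that library, with a limma adjusted p of 0.310. Ndufv1, which binds NADH and flavin, had 41.0, 45.2, 57.4 and 43.5 against 43.7, 37.8, 104 and 51.0. The groups overlapped, and the log2 fold change of Ndufv1 was -0.08 without Etv5 shRNA replicate 3. Further core genes of the peripheral arm had small fold changes in that fit, with Ndufs3 at -0.11, Ndufs7 at -0.10, Ndufs8 at 0.11 and Ndufv2 at -0.02, each with an interval across 0.

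Ndufb7, an accessory subunit of the membrane arm whose promoter is shown above (gene at chr8:83566671-83571626), had the highest fold change of complex I with 8 libraries. Its values were 43.6, 47.9, 71.7 and 37.5 in the controls and 52.8, 50.7, 320 and 60.6 with the Etv5 shRNA, so a single library carried the difference. The log2 fold change of Ndufb7 was 0.79 (-0.47 to 2.06) with 8 libraries, 0.16 (-0.26 to 0.58) without Etv5 shRNA replicate 3 and 0.34 (0.12 to 0.57) without both replicates 3, where its limma adjusted p of 0.0648 was the smallest of the 76. Among those 6 libraries the lowest Etv5 shRNA value, 50.7, lay above the highest control value, 47.9. Ndufs6, an accessory subunit that binds zinc, was the lowest of complex I without Etv5 shRNA replicate 3. It had 23.8, 29.0, 39.6 and 19.8 against 17.3, 9.92, 170 and 33.0, and a log2 fold change of -0.57 (-1.35 to 0.20) in that fit. The 3 remaining Etv5 shRNA libraries of Ndufs6 spanned more than the control libraries did. Ndufa9, an accessory subunit beside the quinone site, had 23.7, 28.0, 32.9 and 25.8 against 30.2, 30.3, 40.0 and 34.1; only control replicate 3 overlapped the Etv5 shRNA values. Its log2 fold change was 0.28 (-0.07 to 0.62) with 8 libraries and 0.19 (-0.06 to 0.45) without Etv5 shRNA replicate 3. Ndufa9, Ndufb7 and Ndufs8 (36.1 to 40.7 in Etv5 shRNA replicates 1, 2 and 4, and 29.9 to 45.7 in the controls) passed the adjusted threshold only after each library's trend with transcript length was removed, with log2 fold changes of 0.27, 0.32 and 0.23 without Etv5 shRNA replicate 3. These are 3 of 76 subunit genes, where 8.99% of all genes passed with the length trend removed, and 12.4% with a length and GC trend removed, under which the same 3 passed; 3 of 76 does not reach either share. Ndufb9, the most abundant, had 195, 240, 322 and 178 against 180, 163, 596 and 224, and a log2 fold change of -0.28 (-0.73 to 0.17) without that library.

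Complex II oxidises succinate and is also an enzyme of the tricarboxylic acid cycle. Its median log2 fold change was -0.17 with 8 libraries and -0.13 without that library. Sdha had 47.2, 49.1, 53.2 and 46.6 against 45.9, 42.0, 32.6 and 48.2. Sdhc, a membrane anchor, had 60.6, 61.0, 80.3 and 55.5 against 53.0, 50.2, 57.9 and 57.5. For Sdhc the log2 fold change was -0.22 (-0.55 to 0.11) with 8 libraries and -0.25 (-0.53 to 0.04) without Etv5 shRNA replicate 3 (limma adjusted p = 0.331). Sdhb, the iron-sulphur subunit, had a fold change of the other sign from its 3 partners, with 60.9, 66.8, 90.5 and 60.9 against 68.0, 76.3, 174 and 79.3. Its log2 fold change was 0.41 and 0.11, with intervals across 0 in both fits. Sdhd, whose promoter is shown above, had -0.11 and -0.15, also with intervals across 0.

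Complex III hands electrons from ubiquinol to cytochrome c. Its core proteins parted in Etv5 shRNA replicate 3: Uqcrc1 had 128, 136, 171 and 122 against 138, 129, 244 and 153, and Uqcrc2 had 44.1, 49.1, 46.8 and 49.0 against 49.8, 50.8, 30.7 and 47.9. Without Etv5 shRNA replicate 3 their log2 fold changes were 0.02 (-0.28 to 0.31) and 0.07 (-0.11 to 0.25). Uqcrfs1, the Rieske iron-sulphur protein, had -0.08 (-0.36 to 0.19). Uqcrh, the hinge protein beside cytochrome c1 (chr4:116066965-116075071), had 85.7, 104, 149 and 78.2 in the controls and 71.4, 72.1, 338 and 79.7 with the Etv5 shRNA. Without replicate 3 the Etv5 shRNA libraries lay at or under the low end of the controls, with 1 overlap, and the log2 fold change was -0.44 (-0.87 to -0.01), unadjusted p = 0.0477 and adjusted p = 0.260 in limma. With 8 libraries it was 0.10 (-1.01 to 1.22). Uqcrh shares 7.8% of its 50-base stretches with other transcripts, the pseudogene Uqcrh-ps1 among them. Uqcrq, a small accessory subunit, had the highest fold change of the complex with 8 libraries, 0.73 (-0.52 to 1.98), and 0.14 without that library.

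Complex IV reduces oxygen. All 12 tested genes had a log2 fold change above 0 with 8 libraries, from 0.02 to 0.40, and 11 of the 12 were below 0 without Etv5 shRNA replicate 3, from -0.32 to 0.07. Cox4i1 had 283, 316, 476 and 251 in the controls and 290, 300, 1116 and 334 with the Etv5 shRNA. Its log2 fold change was 0.40 (-0.59 to 1.39) with 8 libraries and -0.06 (-0.51 to 0.39) without that library. Cox5a, with 112, 142, 200 and 115 against 132, 123, 358 and 144, and Cox6a1, with 245, 275, 417 and 196 against 248, 239, 910 and 310, followed the same pattern. Cox7a2l, known for joining complexes III and IV into supercomplexes (chr17:83501918-83517330), was the lowest of complex IV in both fits. Its values were 131, 143, 199 and 124 in the controls and 116, 113, 299 and 122 with the Etv5 shRNA. Without Etv5 shRNA replicate 3 the groups did not overlap, which held for 1 of 76 subunit genes against 20.2% of all genes (9.76% higher and 10.4% lower). The log2 fold change of Cox7a2l was then -0.32 (-0.67 to 0.03), limma adjusted p = 0.310, and 0.02 with 8 libraries. Of its 50-base stretches 17.7% occur in other transcripts.

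Complex V makes ATP. Atp5b had 514, 543, 617 and 498 in the controls and 600, 592, 717 and 610 with the Etv5 shRNA; only control replicate 3 reached the Etv5 shRNA values. The log2 fold change of Atp5b was 0.21 (-0.15 to 0.58) with 8 libraries, 0.15 (-0.13 to 0.43) without Etv5 shRNA replicate 3 and 0.21 (0.02 to 0.40) without both replicates 3, with an adjusted p of 0.151 in that limma fit. Its partner Atp5a1, the alpha subunit, had 208, 215, 239 and 214 against 231, 221, 195 and 238, and log2 fold changes of 0.01, 0.07 and 0.11 in the same order. The gamma subunit Atp5c1, which turns inside them, had 85.2, 98.0, 116 and 90.2 against 100.1, 100.4, 121 and 96.7. The small subunits of the central stalk had far wider ranges: Atp5e, the epsilon subunit, had 102, 116, 188 and 78.7 against 91.9, 95.1, 876 and 106. Its log2 fold change was 0.55 (-1.02 to 2.13) with 8 libraries and -0.23 (-0.77 to 0.30) without the library at 876. Atp5d, the delta subunit, had 0.20 and -0.25 in the same fits. Of the c subunit genes, Atp5g1, Atp5g2 and Atp5g3 had 0.07, -0.15 and -0.03 without Etv5 shRNA replicate 3. Atp5s, coupling factor B, was the lowest of complex V with 8 libraries, at -0.20 (-0.52 to 0.11). Atp5k, subunit e of the membrane part, was the lowest without Etv5 shRNA replicate 3, at -0.32 (-1.07 to 0.43).

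Without both replicates 3, 8 subunit genes had Etv5 shRNA values wholly above the controls: Ndufa9, Ndufa10, Ndufb7, Ndufs1, Ndufs8, Sdhb, Atp5a1 and Atp5b. Among all tested genes 14.9% did, a share that 8 of 76 does not reach. Cox7a2l was the only subunit gene wholly below, where 16.4% of all genes were. In that fit 10 subunit genes had an unadjusted p under 0.05, against 25.9% of all genes. The 16 genes with an ETS core in the promoter had a median log2 fold change of 0.39, -0.09 and 0.04 with 8, 7 and 6 libraries, and the 46 tested genes with a promoter entry and no such core had 0.25, -0.11 and 0.05; none of either was called.

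In Etv5 shRNA replicate 3 the median ratio to the mean of the other 3 Etv5 shRNA libraries was 3.01 over the 76 genes; 57 were over 2, 8 over 5 and 5 under 1. It exceeded all other 7 libraries in 68 genes and lay below all of them in 5 (Ndufs1, Sdha, Uqcrc2, Atp5a1 and Atp5s). Ndufa2, a small accessory subunit of complex I, had the largest ratio, 10.1, followed by Atp5e at 8.95 and Ndufs6 at 8.48. The lowest was Ndufs1 at 0.489. By complex the median ratio was 3.12 for I, 1.10 for II, 3.79 for III, 3.11 for IV and 2.24 for V. Control replicate 3 was the highest control in 73 of 76 genes, with a median ratio of 1.52. Across the 76 genes the deviations of the 2 libraries from their groups had a Spearman rho of 0.77, as a description over genes that share these libraries. The labels give no date or batch that would join them. The median coefficient of variation of a subunit gene (75 genes) was 69.0% over 4 Etv5 shRNA libraries and 10.9% over 3, and 25.5% over 4 control libraries and 12.1% over 3.

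Transcript length moved with this excess. Subunit genes under 600 bases had a median log2 deviation of 1.99 in Etv5 shRNA replicate 3 (14 genes), those of 600 to 800 bases 1.64 (19 genes), those of 800 to 1000 bases 1.68 (10 genes), those of 1000 to 1500 bases 1.34 (13 genes), those of 1500 to 2500 bases 0.76 (14 genes) and those of 2500 bases or more -0.06 (6 genes). Other tested genes had 0.00, 1.18, 1.10, 0.65, -0.03 and -0.80 in these classes. The median of the subunit genes was thus above that of other genes of their length in each class. The other genes, which can include genes with no protein-coding transcript, were not matched for level. Among them, genes of ribosomal proteins, also short and abundant, took 22.3% of summed values in this library, against 12.2% or less in every other library. From 1000 bases up the deviation of subunit genes and of other genes was smaller the longer the class. In control replicate 3 the subunit genes had 0.71, 0.69, 0.54, 0.50, 0.40 and 0.31 and other genes 0.01, 0.45, 0.47, 0.36, 0.17 and -0.17. Spearman's rho between length and deviation over the 76 genes was -0.61 in Etv5 shRNA replicate 3 and -0.50 in control replicate 3, again as a description over genes of the same libraries. The part of length, RNA quality or library preparation in these values was not tested.

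**Figure D4:**
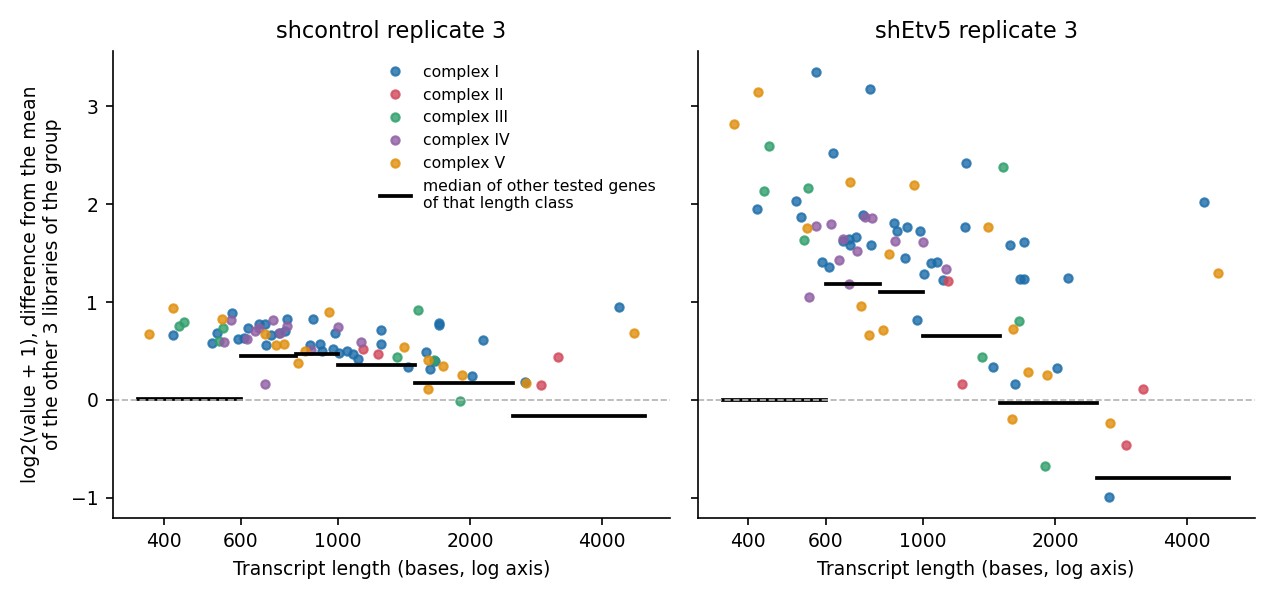
Deviation of each tested subunit gene (coloured by complex) in the 2 libraries numbered 3 from the mean of the other 3 libraries of the group, on log2(coverage value + 1), against transcript length on a log axis; black bars are medians of the other tested genes in 6 length classes, the outer classes being drawn to the edge. Deviations are larger in Etv5 shRNA replicate 3 and smaller for longer transcripts, and most subunit genes lie above the bar of their class.

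The genes around the chain were counted in lists. Of 48 assembly factors, which help build the complexes and are not part of them, limma called 0 with 8 libraries, 1 higher without Etv5 shRNA replicate 3 and 2 higher without both replicates 3, with medians of 0.08, 0.02 and 0.06. Over all genes 1.08% were called higher in the second of these fits and 3.58% in the third, so 1 and 2 of 48 are near the background. The gene called in both was Cox10, which acts in the synthesis of the heme A of complex IV. Cox10 had 4.59, 4.67, 4.04 and 4.96 in the controls and 6.88, 6.22, 6.56 and 6.27 with the Etv5 shRNA. All 4 Etv5 shRNA libraries, replicate 3 included, lay above all controls, and the means were 4.56 ± 0.386 and 6.48 ± 0.303 (SD, n = 4). For Cox10 the log2 fold change was 0.43 (SE 0.124, limma adjusted p = 0.359) with 8 libraries and 0.42 (SE 0.0931, limma adjusted p = 0.0435) without that library; leaving out 1 more library kept the call in 1 of 7 fits. Ndufaf4, an assembly factor of complex I named after its values were seen, had 2.76, 2.86, 4.08 and 2.88 against 5.09, 5.71, 5.27 and 4.29, again with no overlap, and 0.55 (limma adjusted p = 0.0636) without that library. Without both replicates 3 Ndufaf4 was the other gene called, at 0.65 (limma adjusted p = 0.00475), and it also passed without Etv5 shRNA replicate 3 when the length trend was removed (limma adjusted p = 0.0423). With 8 libraries 3 of the 48 assembly factors, Cox10, Ndufaf4 and Ecsit, were wholly higher, against 1.52% of all genes. Wholly lower were 0 of the 48, against 7.58% of all genes.

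Of 20 electron carriers, genes of coenzyme Q synthesis and subunits outside the name rule, 0 were called with 8 libraries or without Etv5 shRNA replicate 3, with medians of 0.17 and -0.07. Without both replicates 3, 2 were called higher, Cycs and Coq10b, and 1 lower, Coq10a, with a median of 0.02, against 3.58% and 5.33% of all genes. Cycs, somatic cytochrome c, had 11.2, 12.9, 15.8 and 12.2 against 17.1, 17.5, 29.6 and 16.4, with no overlap between groups. It too was named after its values were seen. With 8 libraries Cycs was the 1 gene of this list wholly higher, against 1.52% of all genes. Coq9 was the 1 gene wholly lower, against 7.58%. For Cycs the log2 fold change was 0.56 with 8 libraries (limma adjusted p = 0.550), 0.37 without Etv5 shRNA replicate 3 (limma adjusted p = 0.116) and 0.46 without both replicates 3 (limma adjusted p = 0.00656). Cyc1, the cytochrome c1 of complex III, had 53.3, 61.1, 63.0 and 56.5 against 67.4, 59.0, 90.8 and 80.7 and overlapped. Of 18 genes of the tricarboxylic acid cycle and pyruvate dehydrogenase, 0 were called with 8 libraries or without Etv5 shRNA replicate 3, with medians of -0.00 and 0.11. Without both replicates 3, 2 were called higher, against 3.58% of all genes, and the median was 0.14, with 17 of 18 above 0. Those called were Idh3a, of isocitrate dehydrogenase, at 0.39 (limma adjusted p = 0.0157) and Pdhx, of the pyruvate dehydrogenase complex, at 0.38 (limma adjusted p = 0.0199), and in both Etv5 shRNA replicate 3 was the lowest library of its group. With 8 libraries 0 of the 18 had groups that did not overlap, against 1.52% of all genes higher and 7.58% lower. Without Etv5 shRNA replicate 3, 6 of the 18 were wholly higher with the Etv5 shRNA, where 9.76% of all genes were. Without both replicates 3, 11 were, where 14.9% of all genes were. Whether the list differs from other genes was not tested. Citrate synthase (Cs) had 66.4, 69.9, 60.2 and 68.2 against 81.9, 80.0, 34.4 and 76.5, so its replicate 3 was low where those of most subunit genes were high.

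**Figure D5:**
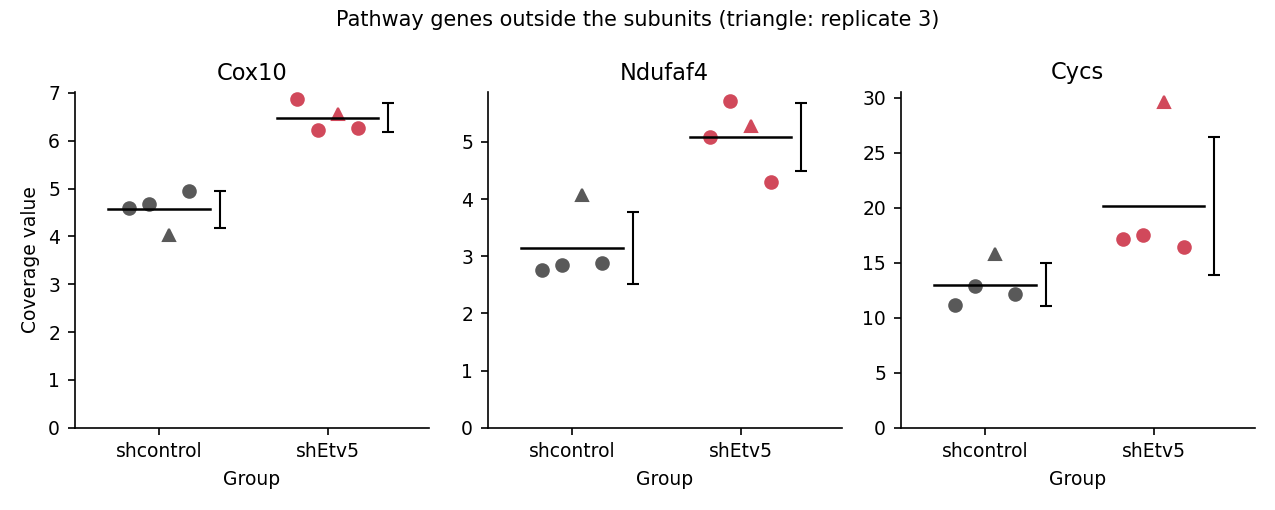
Coverage values of Cox10, Ndufaf4 and Cycs by group; circles are single libraries, triangles the replicates 3, bars the mean of 4 and whiskers 1 SD. In each gene the 4 Etv5 shRNA libraries lie above the 4 controls. The genes were picked with values known. With 8 libraries 3 of 48 assembly factors and 1 of 20 genes in the list of Cycs were wholly higher, against 1.52% of all genes. Wholly lower were 0 of the 48 and 1 of the 20, against 7.58% of all genes. With no trend removed, none passed the adjusted threshold with 8 libraries, Cox10 passed without Etv5 shRNA replicate 3, and all 3 passed without both replicates 3.

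The list of nuclear regulators and of the mitochondrial transcription machinery had 19 tested genes, of which 0 were called with 8, 7 or 6 libraries, with medians of -0.08, 0.02 and 0.03. Gabpa, the DNA-binding part of GABP, had 16.3, 16.1, 14.3 and 16.0 against 18.7, 19.1, 5.90 and 16.4. Nrf1 had 5.61, 6.21, 6.46 and 6.45 against 7.23, 7.28, 5.07 and 7.39. Both were higher than the controls in the 3 remaining Etv5 shRNA libraries and lowest in replicate 3, with log2 fold changes of 0.19 and 0.21 without it (limma adjusted p = 0.279 and 0.224). With 8 libraries 0 of the 19 lay wholly above or wholly below the controls, against 1.52% and 7.58% of all genes. Without Etv5 shRNA replicate 3, 4 of the 19 lay wholly above and 1 wholly below, against 9.76% and 10.4% of all genes. Tfam, which packages and transcribes mitochondrial DNA, had a log2 fold change of -0.02 in that fit. Ppargc1a, a coactivator of the programme, did not pass the filter, with no library above 0.0389. The 84 tested ribosomal protein genes, a list taken as a measure of short abundant transcripts, had medians of 0.24, -0.25 and -0.08 with 8, 7 and 6 libraries and 0 called in each. With 8 libraries that is the same median as that of the subunit genes. Transcripts encoded by mitochondrial DNA were searched for by name and not found, so they were not analysed here.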

How the data were processed

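RNA was sequenced in 8 libraries of 4T1 cells, grouped and numbered by the sample titles. Per the labels' protocols, total RNA went into TruSeq libraries read on a NovaSeq instrument. The submitters' processing notes name STAR 2.7.10a and mm10. The deposited signal comes from coverage tracks, per the file headers, and its values behave as mean coverage per base scaled to depth. Which program and annotation averaged them is not given in the sources used here. Read depth is unknown, so no counting interval is given. No label says that replicates were separate cultures, so p-values measure only how these samples vary, and that variation may be technical.

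Values were compared as log2(value + 1), with a pseudocount of 1, so fold changes of low genes are understated. The 11731 genes reaching 0.5 in 4 or more libraries were fitted in R 4.3.3 by limma 3.58.1, whose prior variance followed an intensity trend; p-values were adjusted by Benjamini-Hochberg over all of them and called under 0.05. The script was tested on simulated data. Fits used 8 libraries, or 7 without Etv5 shRNA replicate 3. The fit on 6, without both replicates 3, is an alternative to the second. Folds between genes are ratios of mean coverage values. Transcript lengths, coordinates and shared 50-base stretches came from GENCODE on mm10. Lengths are of the longest protein-coding transcript, or of the longest transcript of any type where a gene has none.

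The members and lists were chosen with earlier results of these data known. Named were core catalytic and redox subunits, isoform series, every called gene and, by complex, the most abundant gene and the extremes of each fit: 47 genes, of which 41 were tested; 1 of them is in the counts and is not reported singly here. The ETS-core genes whose promoters are printed and the pathway genes described singly were picked for mention with values known. Alternatives were 3 other scalings, 2 other filters, a pseudocount of 0.1, a replicate block, removal of the length trend (lowess, span 0.3) and leaving out each library. Removal of the length trend and then of a GC trend, each by its own lowess, was added after seeing the data.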

Additional observations from a re-analysis of the deposited data

Results flagged for a closer look

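Of 100 groups of 4 libraries screened, 34 held a library whose gap to its nearest neighbour took most of the group's range (Dixon's criterion), where chance flags about 5; 30 of the 34 were Etv5 shRNA replicate 3. The genes are not independent, since they share that library.

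In complex I its coverage value stood apart in Ndufs3 (83.6), Ndufs6 (170.3), Ndufs7 (200.7), Ndufs8 (94.9), Ndufv2 (87.01), Ndufa4 (432.6), Ndufb7 (319.5) and Ndufb9 (595.5), above the other 3 Etv5 shRNA libraries, and in Ndufs1 (16.6), below them. In complex II it stood above in Sdhb (173.6). In complex III it stood above in Uqcrfs1 (86.3), Uqcrh (337.5) and Uqcrq (192.2) and below in Uqcrc2 (30.7). In complex IV it stood above in Cox4i1 (1116), Cox5a (358.5), Cox6a1 (910.5), Cox6b1 (373.4), Cox7a2 (225.2) and Cox7a2l (298.6). In complex V it stood above in Atp5b (716.6), Atp5c1 (121.2), Atp5d (563.9), Atp5e (875.6) and Atp5g1 (33.4). The summed coverage values of complex I (4531), III (1547), IV (4809) and V (4555) stood apart in the same library, as did the share of subunit genes in all summed values (4.05%).

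Control replicate 3 stood above the other controls in Ndufs7 (91.9), Uqcrfs1 (84.4) and Atp5d (259.8). Cox4i2 was at 0 in control replicates 1 to 3 and at 0.125 in control replicate 4, a level too low to read.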

How the results depend on the processing

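No subunit gene was called under any setting of the 8-library fit, and the smallest adjusted p among subunit genes ran from 0.125 to 1 over them. Without Etv5 shRNA replicate 3 the count of called subunit genes was 0 in every setting but removal of the length trend, where it was 3, and removal of the length and GC trend, added after seeing the data, where it was also 3, against 8.99% and 12.4% of all genes: Ndufa9 (log2 fold change 0.27 and 0.24, adjusted p = 0.0366 and 0.0368), Ndufb7 (0.32 and 0.40, adjusted p = 0.0309 and 0.0142) and Ndufs8 (0.23 and 0.26, adjusted p = 0.0379 and 0.0162), all from limma. The cause was not tested. Over the settings of this fit the smallest adjusted p ran from 0.0142 to 0.555. Leaving out 1 library at a time gave 0 called genes throughout both fits (range 0 to 0). Of the named genes' values under other settings, 70 of 696 with 8 libraries and 75 of 655 without Etv5 shRNA replicate 3 had the other sign, none of them called. The median of all tested genes lay at -0.11 with 8 libraries and at 0.02 under median-of-ratios scaling, where that of the subunit genes was 0.41. Equal sums lowered the higher and lower calls over all genes from 127 and 241 to 65 and 147 without Etv5 shRNA replicate 3; length removal raised them to 481 and 564, and length and GC removal to 712 and 727. The labels do not say whether replicate numbers pair the libraries. Numbers 1 to 4 had correlations of 0.549, 0.092, 0.794 and 0.51 over all genes. Controls 1 and 3 correlated best with their own number, and controls 2 and 4 did not, which leaves pairing undecided. With the replicate block, 0 subunit genes were called in both fits, and calls over all genes were 1 higher and 50 lower with 8 libraries and 80 and 211 without Etv5 shRNA replicate 3. In that blocked fit without Etv5 shRNA replicate 3 Cox10 lost its call (limma adjusted p = 0.0835), while Ndufaf4 (0.0317) and Cycs (0.0418) passed. Cox10 was also not called there with equal sums (0.123) or no filter (0.0707). With 8 libraries Cox10 passed after length and GC removal (limma adjusted p = 0.0442). Unknown read depth limits what can be said of low genes such as Cox6a2.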
